A study of Mus musculus with 4 samples.

Results

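The 9 genes described here belong to retinoic acid signalling and to the nuclear receptor families next to it: the receptor genes *Rara*, *Rarb*, *Rarg* and *Rxra*, the retinoic acid enzymes *Aldh1a2* and *Cyp26a1*, the COUP-TF genes *Nr2f1* and *Nr2f2*, and *Rora* of the ROR family. They are 9 of 21951 protein-coding genes and were chosen by name and not by a measured value, though with earlier results of these data known. Each peak that overlapped the gene body, or lay within 10 kb of one of its transcription start sites (TSSs) in GENCODE M21, was counted and placed on the mm10 genome. The rule found 20 of the 25745 peaks that were listed as 2-fold or more higher in *Smyd1-KO* hearts, called gained peaks here. It found 0 of the 106 peaks listed as higher in WT hearts, called WT-enriched peaks.

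The peaks come from ATAC-seq, in which the Tn5 transposase cuts accessible DNA, of whole mouse hearts at E9.5. *Smyd1-KO* hearts were homozygous null for *Smyd1*, which encodes a muscle histone methyltransferase. The null allele was not limited to a cell type. WT hearts served as the control, and hearts were genotyped one by one before pooling. Each genotype had 2 libraries, each from a pool of 4 hearts with 40000 viable cells, and the question was how accessible chromatin differs when SMYD1 is absent. The authors combined the libraries of a genotype before calling peaks, so from these lists the spread between libraries and the depth of each cannot be known, and they allow no p-value for a difference between genotypes. The only value per peak is its score, the pooled tags of the genotype whose list holds the peak, which is a level within the list and not a difference. Not all scores are whole numbers, so they are not raw counts of the pooled reads but were scaled or averaged in a way not given in the sources used here. A whole heart mixes cell types, so a larger share of cells with an open site and a wider opening of that site in the same cells cannot be told apart.

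Retinoic acid is made from retinaldehyde, in the embryo mainly by the dehydrogenase ALDH1A2, and is cleared by CYP26 enzymes. It binds the receptors RARα, RARβ and RARγ, which sit on DNA as heterodimers with RXRs at response elements built from repeats of a short half-site. The COUP-TFs (NR2F1 and NR2F2) are orphan receptors that bind similar repeats and can compete with RAR-RXR, and NR2F2 is known for its role in the atria and the veins. RORα binds a single half-site with an AT-rich flank and is known for driving clock genes. In the early heart, retinoic acid sets the posterior limit of the heart field and is needed for the inflow tract and atria.

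Of the 9 genes, 7 had at least 1 gained peak (77.8%), against 62.6% of all protein-coding genes. A gained peak within 1 kb of a TSS was found at 5 of the 9 genes (55.6%), namely *Rara*, *Rarb*, *Rarg*, *Aldh1a2* and *Rora*, against 48.1% of all protein-coding genes. Counted by start site, 14 of the 47 distinct TSSs of the 9 genes (29.8%) had a gained peak within 1 kb, against 38.4% of the distinct TSSs of protein-coding genes. The gene shares were thus near the background and the share of start sites lay below it, so having a gained peak does not set these genes apart. *Cyp26a1* and *Nr2f1* had none. No WT-enriched peak lay at any of the 9 genes, where 0.155% of protein-coding genes had one, and the nearest was between 2493 kb (*Cyp26a1*) and 83248 kb (*Rara*) from a TSS.

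**Figure D1:**
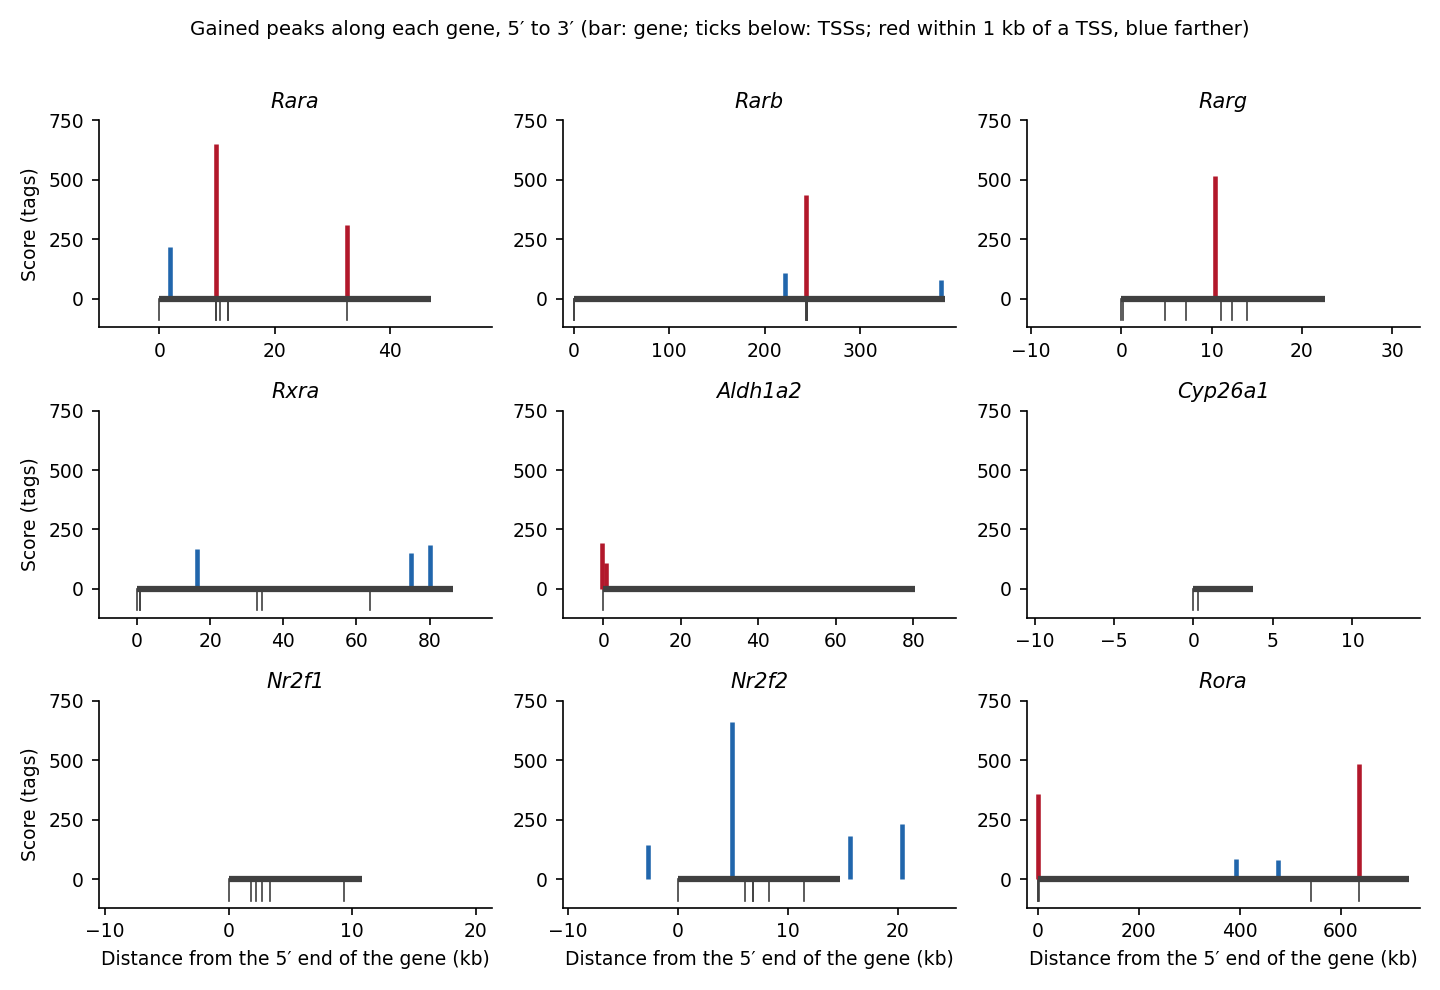
Each panel shows 1 gene from its 5′ end at 0 to its 3′ end (x axis, kb), with TSSs as ticks below the bar; a vertical line is a gained peak and its height is the score in tags. Red lines lie within 1 kb of a TSS of the gene and blue lines farther. The highest lines are those at *Nr2f2* (660.5 tags) and *Rara* (649 tags), and the panels of *Cyp26a1* and *Nr2f1* hold no line.

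*Rara* encodes RARα, the most widely expressed of the RARs. The gene (ENSMUSG00000037992.16, chr11:98927818-98974942, plus strand) had 3 gained peaks, 1 close to each of its 3 separated groups of start sites. Peak 1 (chr11:98929649-98929797) scored 215 tags and lay in an intron 1.83 kb downstream of the start of Rara-203. Peak 2 (chr11:98937503-98937651) scored 649 tags and ended 47 bp upstream of the start of Rara-204. Peak 3 (chr11:98960238-98960386) scored 311.5 tags and ended 26 bp upstream of the start of Rara-202, 22.7 kb beyond that of Rara-204. The alternative start changes the coding sequence: Rara-204 has 462 codons and Rara-202 has 459. The sequences of the 2 promoter peaks are shown on the plus strand, 5′ to 3′, because they stand directly before the alternative starts. Capitals in this and later sequences mark half-sites, and neither of these peaks holds one.
Rara peak 2: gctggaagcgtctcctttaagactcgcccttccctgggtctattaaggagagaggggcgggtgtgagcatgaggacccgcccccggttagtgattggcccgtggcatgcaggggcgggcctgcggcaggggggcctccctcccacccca
Rara peak 3: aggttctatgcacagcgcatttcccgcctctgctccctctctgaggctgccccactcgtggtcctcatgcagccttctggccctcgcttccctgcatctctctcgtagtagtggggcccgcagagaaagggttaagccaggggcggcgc

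Among protein-coding genes of 0.5 to 2 times its length, the median number of gained peaks was 1, and 11.8% had 3 or more as *Rara* did. The score of peak 2 was at percentile 88.7 of the list and that of peak 3 at percentile 65.9. *Rara* was 1 of 2 genes, with *Rora*, that had gained peaks at 2 promoters far apart.

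*Rarb* encodes RARβ, and its downstream promoter is a textbook target of retinoic acid. The gene (ENSMUSG00000017491.9, chr14:16430839-16819156, minus strand) had 3 gained peaks along 388 kb. Peak 2 (chr14:16575527-16575675) scored 437 tags, covered the start of Rarb-201 and overlapped an annotated 5′ UTR. It was the only one of the 20 peaks that covered a TSS of its gene. The same peak covered the start of *Gm48162*, an antisense transcript, so its tags belong to both start sites. Peak 3 (chr14:16598406-16598554, 109 tags) lay in an intron 22.6 kb upstream of the Rarb-207 start. Peak 1 (chr14:16434516-16434664, 79 tags) lay in an intron at the 3′ end, 140 kb from a start of *Rarb*, overlapped *Top2b*, and was nearer to a TSS of *Top2b* (9088 bp). The other promoter, at Rarb-203 and Rarb-204, is 244 kb upstream of that of Rarb-201 and was 220 kb or more from any gained peak. Genes of like length had a median of 3 gained peaks, and 52.2% had at least 3, so the number at *Rarb* was ordinary for its length.

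The direct repeat with 5 bases between its half-sites (DR5) is the classical element bound by RAR-RXR. It was searched on both strands as 2 copies of a 6-base half-site of the form NGNTCA, with A or G at position 1 and G or T at position 3. In the RefSeq promoter windows (GRCm38.p6, 250 bases before to 50 after a start), a DR5 was found in 17 of 21263 windows of protein-coding genes (0.0800%), and 2 of these belonged to the 9 genes: *Rarb* and *Cyp26a1*. The 30 bases around each repeat are shown on the strand of the gene, 5′ to 3′, with the half-sites in capitals, because they set the gene with a gained peak at its start beside one without.
Rarb DR5: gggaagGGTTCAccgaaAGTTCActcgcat
Cyp26a1 DR5: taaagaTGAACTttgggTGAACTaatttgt

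The *Rarb* window is chr14:16575506-16575535 on the minus strand, and the repeat itself, of 17 bases, ran from 53 to 37 bases before the RefSeq start. That start (chr14:16575476) is not the Rarb-201 start covered by the peak (chr14:16575543), and the repeat lay downstream of the latter. The gained peak ended inside the repeat and held 3 of its 17 bases, which is why the peak as deposited has no DR5 match. The *Cyp26a1* window is chr19:37697770-37697799 on the plus strand. Its repeat lay from 32 to 16 bases before the RefSeq start, read on the opposite strand, and was 41103 bp from the nearest gained peak. A match is a description of letters and not of binding.

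*Rarg* encodes RARγ, a receptor of mesenchyme and skeletal precursors. The gene (ENSMUSG00000001288.15, chr15:102234938-102257517, minus strand) had 1 gained peak (chr15:102247005-102247153) of 515 tags, at percentile 82.3 of the list. It lay in an intron, 505 bp upstream of the start of Rarg-202, which has 447 codons. The starts of Rarg-201 (458 codons) and Rarg-205 were 10.4 kb and 10.2 kb from it, and no gained peak was listed there. The peak was among the richest in CpG of the whole list, at percentile 99.1, with an observed to expected ratio of 1.23. It is shown on the minus strand for this CpG content.
Rarg peak 1: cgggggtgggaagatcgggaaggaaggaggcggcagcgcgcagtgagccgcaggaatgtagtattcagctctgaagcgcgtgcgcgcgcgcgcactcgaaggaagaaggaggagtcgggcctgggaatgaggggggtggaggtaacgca

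*Rxra* encodes RXRα, the obligate partner of many nuclear receptors, which is needed for growth of the ventricular wall. The gene (ENSMUSG00000015846.14, chr2:27676440-27762957, plus strand) had 3 gained peaks, all in introns and none within 11 kb of a TSS. Peak 1 (chr2:27692693-27692841) scored 168.5 tags and lay 15.4 kb from the start of Rxra-206. Peak 2 (chr2:27751279-27751427) scored 149.5 tags and peak 3 (chr2:27756387-27756535) scored 185.5 tags, 11.1 kb and 16.2 kb from the start of the noncoding Rxra-205. The 3 scores were close to the list's median of 180.5 tags, and at percentiles 74.1 to 81.5 of peaks farther than 1 kb from any TSS. Genes of like length had a median of 1 gained peak, and 19.7% had 3 or more. Another gained peak, of 318 tags (chr2:27636826-27636974), lay 39.5 kb upstream, outside the limit of 10 kb, and *Rxra* was the gene with the nearest TSS.

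*Aldh1a2* encodes the main enzyme of retinoic acid synthesis in the embryo and marks the epicardium and the inflow region. The gene (ENSMUSG00000013584.5, chr9:71215789-71296243, plus strand) has 1 annotated transcript, and its 2 gained peaks stood on either side of the start. Peak 1 (chr9:71215283-71215431) scored 192.5 tags and ended 358 bp upstream. Peak 2 (chr9:71216425-71216573) scored 110 tags and began 636 bp downstream, in an intron. These were low for promoter peaks, at percentiles 17.7 and 7.57 of peaks within 1 kb of a TSS. Neither overlapped the RefSeq promoter window. They are shown on the plus strand because they flank the start, and the capitals in peak 2 mark its 1 half-site.
Aldh1a2 peak 1: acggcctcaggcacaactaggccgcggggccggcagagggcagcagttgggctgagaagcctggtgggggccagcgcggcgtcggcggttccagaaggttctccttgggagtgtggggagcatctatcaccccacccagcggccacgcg
Aldh1a2 peak 2: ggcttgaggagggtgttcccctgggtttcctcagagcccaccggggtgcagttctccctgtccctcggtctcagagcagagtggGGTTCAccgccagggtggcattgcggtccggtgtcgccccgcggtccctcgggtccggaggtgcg

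*Cyp26a1* encodes a cytochrome P450 that degrades retinoic acid and is induced by it. The gene (ENSMUSG00000024987.6, chr19:37697798-37701536, plus strand) had no gained peak. The nearest one (chr19:37656525-37656673, 119.5 tags) was 41.1 kb from its start and nearer to *Cyp26c1* (28908 bp), which encodes another enzyme of this family. Among genes of like length 53.8% had none, so its lack of a peak was common for so short a gene.

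*Nr2f1* encodes COUP-TFI. The gene (ENSMUSG00000069171.14, chr13:78188973-78199757, minus strand) also had no gained peak, as did 42.9% of genes of like length. This depended on the limit: a peak of 100.5 tags (chr13:78210050-78210198) lay 10.3 kb from the start of Nr2f1-201, just outside 10 kb, and 7263 bp from a start of *A830082K12Rik*. The member peak just inside the limit was *Nr2f2* peak 1, at 8.78 kb. Another pair of gained peaks, of 339.5 and 204 tags, lay 27.1 and 26.5 kb from its starts, nearer to *3110006O06Rik*.

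*Nr2f2* encodes COUP-TFII, the atrial and venous member of the family. The gene (ENSMUSG00000030551.14, chr7:70351944-70366735, minus strand) had 4 gained peaks in and around 14.8 kb, though none lay within 1 kb of its own start sites. Only 1.70% of genes of like length had 4 or more, and 5.02% of all protein-coding genes. Peak 3 (chr7:70361747-70361895) lay in an intron 1154 bp upstream of the start of Nr2f2-201. It scored 660.5 tags, the highest of the 20 peaks, at percentile 89.1 of the whole list. Among the gained peaks farther than 1 kb from any TSS it was at percentile 99.1, though it lay just past that limit. Peak 4 (chr7:70369416-70369564, 143.5 tags) lay 2.68 kb upstream of Nr2f2-202 and overlapped the noncoding gene *B130024G19Rik*. Peak 2 (chr7:70350980-70351128, 184 tags) and peak 1 (chr7:70346308-70346456, 233.5 tags) lay downstream of the gene and were nearer to the starts of the unnamed genes *Gm44948* (3284 bp) and *Gm44946* (498 bp). With these left to their nearest genes, *Nr2f2* kept 2 peaks. The sequence of peak 3 is shown on the minus strand as the highest of the set, with its half-site in capitals.
Nr2f2 peak 3: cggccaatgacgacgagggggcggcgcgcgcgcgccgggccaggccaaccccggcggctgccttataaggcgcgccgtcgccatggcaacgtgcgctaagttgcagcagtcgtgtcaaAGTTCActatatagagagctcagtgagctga

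*Nr2f1* and *Nr2f2* are close relatives of similar length, 10.8 and 14.8 kb, and stood at opposite ends of the set with 0 and 4 gained peaks. This contrast depended on the limit, with 0 and 2 peaks at 3 kb and 3 and 4 at 50 kb. The Nr2f1-201 start, at which the gene begins, had no gained peak within 10 kb, whereas the 3 coding transcripts of *Nr2f2* had gained peaks 1.15, 1.83 and 2.68 kb from their starts. The lists hold no value for a peak that did not differ between genotypes, so the absence of a gained peak does not say whether the chromatin was closed or was equally open in both.

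*Rora* encodes RORα. The gene (ENSMUSG00000032238.17, chr9:68653786-69388246, plus strand) is 734 kb long and had 4 gained peaks, in 2 pairs of unlike height. The 2 high ones lay at its 2 coding promoters, which are 636 kb apart. Peak 1 (chr9:68653587-68653735) scored 360 tags and ended 51 bp upstream of the start of Rora-201 (523 codons). Peak 4 (chr9:69289696-69289844) scored 485.5 tags and began 14 bp inside Rora-202 (467 codons), in its 5′ UTR. The 2 low ones, peak 2 (chr9:69045959-69046107, 84.5 tags) and peak 3 (chr9:69128919-69129067, 82.5 tags), lay in introns 149 kb and 66.5 kb from the nearest start. Genes of like length had a median of 3 gained peaks, and 47.5% had 4 or more. Peak 1 is shown on the plus strand because its CpG ratio, 1.51, was the highest of the 20 peaks. It holds a run of T near its 3′ end, and 3.39% of its 32-base words occurred elsewhere in the genome, whereas every word of the other 19 peaks occurred once.
Rora peak 1: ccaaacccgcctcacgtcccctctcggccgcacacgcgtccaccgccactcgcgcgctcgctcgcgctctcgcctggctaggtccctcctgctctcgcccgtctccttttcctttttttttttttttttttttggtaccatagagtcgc

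**Figure D2:**
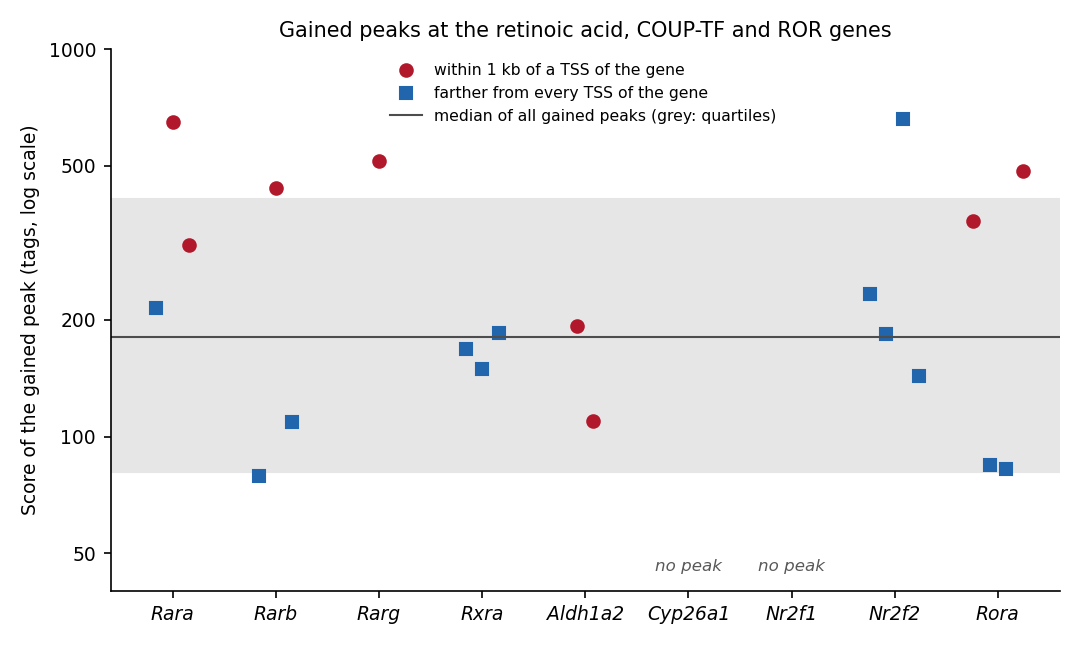
Points are the 20 gained peaks by gene (x axis), with the pooled score in tags on a log axis; circles lie within 1 kb of a TSS of the gene and squares farther. The line is the median of all 25745 gained peaks (180.5 tags) and the grey band their quartiles (81 and 410). At *Rara*, *Rarb* and *Rora*, the genes with both kinds of point, every circle stands above every square. *Nr2f2* has squares only, among them the highest point of all.

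Over the 20 peaks the scores ran from 79 to 660.5 tags with a median of 189, and 12 were at or above the list's median of 180.5. Gained peaks near start sites scored higher in the whole list, with a median of 402.5 tags within 1 kb and 90.5 tags farther away. The 8 peaks within 1 kb of a start of their own gene had a median of 398.5 tags and a range of 110 to 649. The 11 peaks farther than 1 kb from any TSS had a median of 149.5 tags and a range of 79 to 660.5. The promoter peaks were therefore like promoter peaks of the list, and the distal ones had a higher median than distal peaks of the list. The remaining peak was *Nr2f2* peak 1, near *Gm44946* only. By annotation 13 peaks lay in introns, 2 in a 5′ UTR, 3 upstream and 2 downstream of the gene.

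Long genes collected more gained peaks. Protein-coding genes had a mean of 0.594 gained peaks below 3 kb and 4.20 above 300 kb. Against genes of like length, *Nr2f2* and *Rara* had the largest excess, with 1.70% and 11.8% of such genes at or above their counts, followed by *Rxra* with 19.7%. The count of *Nr2f2* depended on the limit of 10 kb and on its noncoding starts: it had 2 peaks with a limit of 3 kb and 3 with the starts of coding transcripts only, whereas *Rara* had 3 under both. That of *Rxra* depended on the gene body, with 0 peaks within 10 kb of a TSS alone, and fell to 1 with scores at or above the list's median. *Aldh1a2*, *Rora*, *Rarb* and *Rarg* were in the ordinary range, at 42.3, 47.5, 52.2 and 66.9%.

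**Figure D3:**
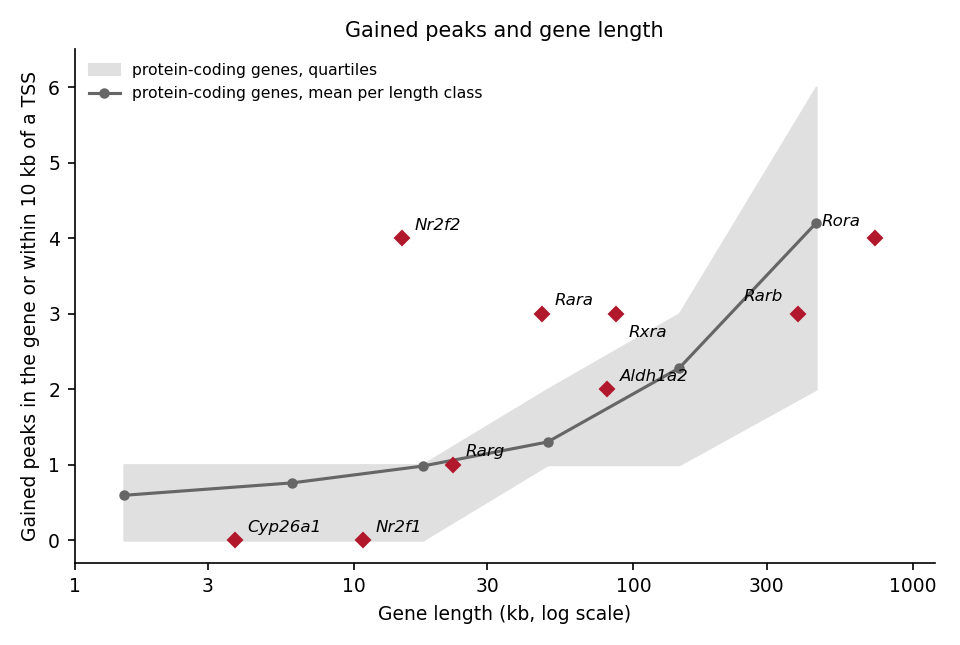
Gained peaks per gene (y axis) against gene length in kb (x axis, log scale); diamonds are the 9 genes, the line joins the mean of protein-coding genes in 6 length classes and the grey area spans their quartiles. *Nr2f2* stands farthest above the line for its length and *Rarb* stands below it. *Rora*, the longest, lies beyond the end of the line at 451 kb.

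The peaks also differed in base composition. Their median GC content was 62.4%, against 57.7% over the list, and their median CpG ratio was 0.562 against 0.416. The 8 promoter peaks had a median GC content of 66.1%, and the other 12 had 53.4%. The 12 were not alike. The 4 at *Nr2f2* had 65.1 to 77.9% GC, and peak 3 had a CpG ratio of 1.21, at percentile 98.8 of the list. The distal peaks of *Rarb*, *Rxra* and *Rora* had 44.3 to 53.7% GC, all below the median of the list. The remaining one, *Rara* peak 1, had 59.7% GC, just above that median. So the *Nr2f2* peaks, which were not at its annotated starts, were close in composition to the promoter peaks of the other genes.

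**Figure D4:**
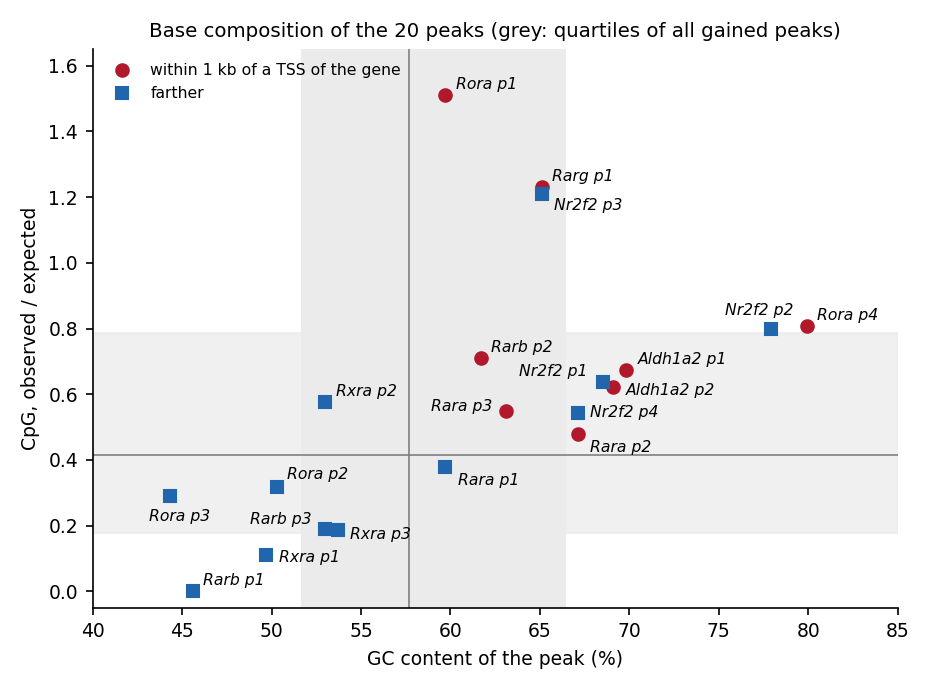
Each point is 1 of the 20 peaks (p1 is peak 1), placed by GC content (x axis, %) and observed to expected CpG (y axis); circles lie within 1 kb of a TSS of the gene and squares farther, and grey bands are the quartiles of all gained peaks. The 4 *Nr2f2* squares lie to the right among the circles, while the squares of *Rxra*, *Rora* and *Rarb* lie to the left. The square of *Rara* lies between them.

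The RefSeq promoter windows gave the same picture of start sites. All 9 genes matched, with 15 windows, of which 4 overlapped a gained peak (26.7%), against 35.5% of all windows of protein-coding genes. The 4 were 2 overlapping windows of *Rara* with the same peak, the *Rarb* window and the *Rora* window. Over all windows, 61.3% of those with a CpG ratio of at least 0.6 overlapped a gained peak and 12.1% of the others. Of the 8 windows of the 9 genes with such a ratio 4 overlapped one, and of the 7 others 0 did. The CpG-rich windows without one belonged to *Aldh1a2*, *Cyp26a1*, *Nr2f1* and *Rxra*, and that of *Rxra* had a GC content of 83.0% and a CpG ratio of 1.08.

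Half-sites were looked for in the peaks themselves, on both strands. One was found in 6 of the 20 peaks, against 24.9% of all gained peaks: in *Rarb* peaks 1 and 2, *Aldh1a2* peak 2, *Nr2f2* peak 3 and *Rora* peaks 2 and 3. The letters AGGTCA alone, which are 1 form of the half-site, were in none of the 20 and in 9.74% of the list. Direct repeats with 1, 2 or 5 bases between the half-sites (DR1, DR2 and DR5, which contain the half-site), and the RORE, an AT-rich flank before a half-site, were in none of the 20. They were rare in the list, at 0.132, 0.140, 0.186 and 0.338% of peaks.

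The other genes of the pathway were counted in the same way. Of 18 other genes of retinoid transport, metabolism and binding 11 had a gained peak (61.1%, against 62.6% of all protein-coding genes), and 8 had one within 1 kb of a TSS (44.4%, against 48.1%). With scores at or above the list's median only 6 of the 18 had a gained peak, against 51.5%. The highest promoter scores were at *Rdh10* (643.5 tags), which makes retinaldehyde from retinol, *Rxrb* (614 tags), a partner receptor, and *Adh5* (605 tags). *Rxrb* and *Rxrg* had the most peaks, 3 each. None was found at *Crabp1*, which binds retinoic acid in the cell, at *Adh1*, or at the synthesis genes *Aldh1a1* and *Aldh1a3*. None was found at the degrading enzymes *Cyp26b1* and *Cyp26c1* either.

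Among 11 genes known as targets of retinoic acid or placed downstream of it, 10 had a gained peak (90.9%, against 62.6% of all protein-coding genes), and 4 had one within 1 kb of a TSS (36.4%, against 48.1%). With scores at or above the list's median 6 of the 11 had a gained peak, a share near the 51.5% of all protein-coding genes. *Meis2*, a homeobox gene, had the most, with 4, and the highest promoter score (519 tags). *Hoxb4*, a homeobox gene that patterns the body axis, was also among the 3 highest (235 tags). *Cdx1* had none. All 5 clock genes with ROR elements had a gained peak within 1 kb of a TSS, against 48.1% of all protein-coding genes, and 4 of the 5 had a gained peak when only scores at or above the list's median were kept. Their 3 highest promoter scores were 863 tags at *Arntl*, 734 at *Cry1* and 580.5 at *Nr1d1*, and *Arntl* and *Nr1d1* had 3 peaks each.

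Of 42 other nuclear receptor genes 34 had a gained peak (81.0%, against 62.6% of all protein-coding genes) and 28 had one within 1 kb of a TSS (66.7%, against 48.1%), and of the 7 receptor genes described above 6 and 4 did. *Esrrg* had the most, with 6, and the highest promoter scores were at *Nr1d2* (1588 tags), a repressor of the clock, *Esrra* (1158 tags), a regulator of oxidative metabolism, and *Nr2c2* (1079 tags). All 9 coregulator genes had a gained peak within 1 kb of a TSS, where 48.1% of all protein-coding genes did. The highest promoter scores were at *Ncoa2* (949 tags), *Nrip1* (617 tags) and *Ep300* (575 tags). No gene of these 5 lists had a WT-enriched peak. The lists were not matched for gene length. In the gene or within 10 kb of a TSS, 75.2% of protein-coding genes of 30 to 100 kb had a gained peak. For those of 100 to 300 kb it was 86.8%, and the part of length in the shares of the lists was not tested. The lists also overlap. *Rxrb* and *Rxrg* count as retinoid and as receptor genes. *Nr1d1* counts as a clock and a receptor gene, and *Dhrs3* as a retinoid gene and a target.

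**Figure D5:**
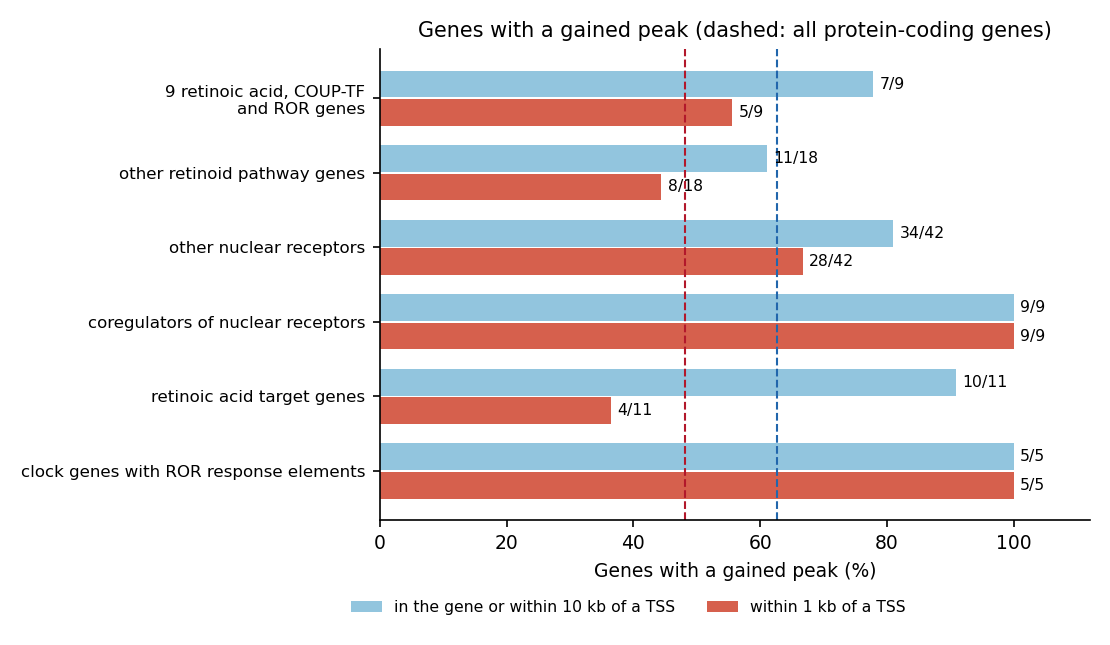
Bars give the share of genes in each list (x axis, %) with a gained peak by the rule above (blue) and within 1 kb of a TSS (red), with counts beside them; dashed lines are the shares of all protein-coding genes, 62.6% and 48.1%. The coregulators and clock genes reach 100%, and the retinoic acid targets have the widest gap between the bars, 90.9% and 36.4%.

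The targeted gene cannot be checked here, since *Smyd1* had 2 gained peaks, 0 of them within 1 kb of a TSS, and 0 WT-enriched peaks, and accessibility does not read the null allele. Of 23 marker genes of the cell types of the heart tube, 15 had a gained peak, a share near the 62.6% of all protein-coding genes, and 0 had a WT-enriched peak. By cell type these were 5 of 5 for cardiomyocytes, 3 of 5 for endothelium, 3 of 5 for epicardium (*Aldh1a2* among them), 3 of 5 for blood and 1 of 3 for neural crest. Within 1 kb of a TSS the counts were 4, 1, 3, 0 and 1 in the same order, 9 of 23 in all, against 48.1%. Lists of 3 to 5 genes are too short to set one cell type apart from another. The levels of the markers cannot be read from lists of differential peaks, and the part of cell type shares in the results was not tested. Of all differential peaks nearly all were in 1 direction, so the direction of the 20 peaks was that of the lists as a whole, and the scaling of total tags between genotypes is not stated in the sources used here.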

How the data were processed

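ATAC-seq was performed on E9.5 WT and *Smyd1-KO* hearts (2 libraries per genotype). Per the labels, the methods of the study and the header of the authors' peak table (which names combined tag directories), the authors aligned reads to mm10 with BWA-MEM, called peaks with HOMER 4.10.3 on the combined libraries of a genotype, kept those with a 2-fold or larger difference in tags, and annotated them with ChIPseeker 1.20.0. The deposited value is a signal, the tags per peak in the pooled libraries of 1 genotype, scaled or averaged in a way not stated, since not all values are whole. The treatment of duplicates, of multi-mapped reads and of the Tn5 offset is not given in the sources used here, and each could change which peaks are listed. The intervals, 149 bp wide, may be short by 1 base at their start, because the start given in the authors' peak table counts from 1.

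Peaks were assigned with Python 3.11.15 and numpy 2.4.6 to GENCODE M21 genes by any overlap of the gene body or of 10 kb around a TSS, with distance taken from the nearer edge, and the assignment was tested on simulated data with planted peaks. Peak sequences were read from GRCm38.p6, which has the sequence of mm10. Counts were read beside the same share of all protein-coding genes, without a test. The 9 genes and all lists were chosen with earlier results of these data known. Named are the 9 genes, the genes of each list with the most peaks and the 3 highest promoter scores, those without a peak in lists of up to 18 genes, and nearer neighbours. Some genes that the rule names are not reported here. Genes without a symbol beside distant peaks, and the peak upstream of *Rxra*, were named after their values were seen. The alternatives tried were other distances, start sites, thresholds, merging and motif letters.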

Additional observations from a re-analysis of the deposited data

How the results depend on the processing

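No paired analysis was possible because peaks were called on combined libraries, and for the same reason no replicate could be left out. The number of genes with a gained peak, 7 of 9, ran from 6 to 9 over the alternatives, and the absence of WT-enriched peaks held within 50 kb. The number of gained peaks, 20, became 31 within 50 kb, 13 without gene bodies and 12 with scores at or above the list's median. Without gene bodies *Rxra* had 0 peaks, *Rarb* 1 and *Rora* 2. Within 50 kb *Cyp26a1* had 2, *Nr2f1* 3, *Rara* 5 and *Rarg* 3. With scores at or above the list's median *Rora* had 2, and *Rarb*, *Rxra* and *Aldh1a2* had 1 each. With a limit of 3 kb *Nr2f2* had 2, and with peaks within 1 kb merged *Aldh1a2* had 1. The 5 genes with a peak within 1 kb of a TSS became 1 when the peak had to cover the TSS. The median score, 189 tags, was 398.5 for peaks within 1 kb of a start. With scores at or above the median, 6 of the 18 other retinoid genes and 6 of the 11 retinoic acid targets had a gained peak. The share of protein-coding genes, 62.6%, was 56.6% at 3 kb, 79.1% at 50 kb, 59.5% without gene bodies, 61.7% with starts of coding transcripts only and 51.5% with scores at or above the median. The 6 half-sites became 0 with AGGTCA alone. Fewer or more peaks counted are the construction of these alternatives. The lists hold no depth per library, so no precision can be given.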
